A study of Mus musculus with 2 samples.

Results

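The regions described here are the PHLPP1 CUT&Tag peaks of IL-4-treated macrophages that lay at the ends of long non-coding RNA (lncRNA) genes and away from protein-coding gene ends. A peak was a member when its summit fell no more than 1 kb from an annotated end of a RefSeq lncRNA gene on chromosomes 1 to 19 and more than 2 kb from every annotated end of a protein-coding gene. The regions were thus chosen by the presence of a peak in the IL-4 list and by its summit position, and not by its strength. There were 4998 such peaks among the 237724 IL-4 peaks on chromosomes 1 to 19, and the untreated list held 3058 chosen the same way among 148348.

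The study mapped DNA near PHLPP1, a protein phosphatase that acts on AKT, in bone marrow-derived macrophages of mice. CUT&Tag uses an antibody to bring a transposase to a protein on chromatin, so that nearby DNA is tagged and sequenced. There was 1 library of cells given IL-4 at 20 ng/ml for 4 h and 1 library of untreated cells, both grown in M-CSF at 20 ng/ml. The series design describes wild-type cells. The treatment protocol also names Phlpp1-deficient cells, which were not analysed here, and neither a control antibody library nor an input library was analysed here. With 1 library per group, no difference between the groups has a replicate check, and no test was made. Intervals for shares are Wilson 95% intervals, those for fragments are exact Poisson 95% intervals, and both cover counting error only, since fragments made by PCR are not independent molecules.

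Long non-coding RNAs are transcribed by RNA polymerase II but are not translated into protein. Some act in the nucleus on chromatin or RNA processing, and others are hosts from which small RNAs such as microRNAs and snoRNAs are cut. Many promoters of widely expressed genes lie in CpG islands, stretches of DNA that keep a high density of the CG dinucleotide and tend to be unmethylated and open, whereas most lncRNA promoters have few CG dinucleotides.

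The promoters below are shown because the first 5 belong to genes with a strong IL-4 peak within 1 kb of the start, and because the IL-4 and untreated lists separated by the content of CG dinucleotides at lncRNA starts. Each is 300 bases, from 250 bases before to 50 bases after the transcription start, 5′ to 3′ on the gene's strand, from RefSeq on GRCm38.p6, the build of the deposited mm10 coordinates. CG dinucleotides are in capitals. The last, Gm36599, carried the highest untreated peak at a known lncRNA start by −log10 q. The first 5 were picked from 9 such IL-4 genes and include the 3 counted as CpG-rich, so they do not represent the base composition of all 9. They are not the 5 highest by −log10 q: Gm17801, at 11.4, stood above Mir22hg and is not printed. The IL-4 summits lay 81 to 301 bp from these starts, and the peak at Gm27011 did not reach the printed bases.
Gm26901, chr1:7398047-7398346, minus strand: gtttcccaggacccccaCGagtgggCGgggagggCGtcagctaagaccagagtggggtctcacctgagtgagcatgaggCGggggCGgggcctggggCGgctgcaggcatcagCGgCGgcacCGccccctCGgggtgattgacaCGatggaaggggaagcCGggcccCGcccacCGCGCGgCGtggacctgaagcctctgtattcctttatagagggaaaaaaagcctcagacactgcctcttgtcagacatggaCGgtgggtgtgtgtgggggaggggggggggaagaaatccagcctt
Mir22hg, chr11:75461289-75461588, plus strand: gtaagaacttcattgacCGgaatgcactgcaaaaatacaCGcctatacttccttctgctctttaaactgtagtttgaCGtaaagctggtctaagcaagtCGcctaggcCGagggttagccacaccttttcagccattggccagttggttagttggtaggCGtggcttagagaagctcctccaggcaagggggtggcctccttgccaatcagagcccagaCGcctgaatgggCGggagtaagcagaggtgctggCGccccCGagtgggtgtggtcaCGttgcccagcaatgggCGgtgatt
D130051D11Rik, chr15:85634346-85634645, plus strand: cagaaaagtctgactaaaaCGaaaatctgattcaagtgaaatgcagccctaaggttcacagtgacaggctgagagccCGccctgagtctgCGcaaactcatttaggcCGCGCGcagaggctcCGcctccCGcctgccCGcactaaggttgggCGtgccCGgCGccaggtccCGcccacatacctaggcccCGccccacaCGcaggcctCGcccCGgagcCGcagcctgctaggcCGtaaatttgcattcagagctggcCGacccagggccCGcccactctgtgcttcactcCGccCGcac
Gm27011, chr8:121950596-121950895, minus strand: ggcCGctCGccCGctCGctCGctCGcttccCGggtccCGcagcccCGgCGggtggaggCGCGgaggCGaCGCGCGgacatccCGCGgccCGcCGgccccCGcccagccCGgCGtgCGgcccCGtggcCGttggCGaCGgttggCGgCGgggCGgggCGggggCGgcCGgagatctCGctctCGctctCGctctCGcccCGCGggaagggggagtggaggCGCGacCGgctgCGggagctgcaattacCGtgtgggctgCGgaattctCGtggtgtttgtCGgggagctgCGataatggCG
Gm13483, chr2:50296560-50296859, plus strand: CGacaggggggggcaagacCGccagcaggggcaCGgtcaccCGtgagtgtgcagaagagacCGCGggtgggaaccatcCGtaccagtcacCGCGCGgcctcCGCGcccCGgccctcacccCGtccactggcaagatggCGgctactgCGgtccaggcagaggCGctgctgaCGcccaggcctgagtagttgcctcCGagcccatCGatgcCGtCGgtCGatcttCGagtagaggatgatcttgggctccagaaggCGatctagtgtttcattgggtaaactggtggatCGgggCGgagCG
Gm36599, chr4:133008103-133008402, minus strand: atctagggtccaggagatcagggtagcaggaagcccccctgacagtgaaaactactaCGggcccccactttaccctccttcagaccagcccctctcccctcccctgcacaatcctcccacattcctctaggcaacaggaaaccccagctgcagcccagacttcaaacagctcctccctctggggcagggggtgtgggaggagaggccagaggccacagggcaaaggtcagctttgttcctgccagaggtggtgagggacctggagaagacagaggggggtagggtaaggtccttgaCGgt
Gm27011 held 50 CG dinucleotides in its 300 bases, Gm13483 held 28 and D130051D11Rik held 23. Gm26901 held 18 and Mir22hg held 12. Gm36599 held 2, although 60.3% of its bases were G or C. D130051D11Rik, Gm27011 and Gm13483 were CpG-rich as defined here (at least 50% G and C, and a CG count of at least 0.6 of that expected from base composition). Gm26901 at 0.58 and Mir22hg at 0.54 fell just below that ratio, and Gm36599 had a ratio of 0.073.

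Mir22hg is the host gene of miR-22. Its mature products, from RefSeq, are given with the seed (bases 2 to 8) in capitals, because the host's start carried one of the strongest IL-4 peaks.
mmu-miR-22-5p, chr11:75463734-75463755, plus strand: aGUUCUUCaguggcaagcuuua
mmu-miR-22-3p, chr11:75463772-75463793, plus strand: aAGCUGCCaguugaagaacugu

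Most members were weak peaks, and a small set was strong. Peak strength is given as the number of fragments at the summit, solved from the deposited fold and p-value, and as the authors' −log10 q. The median was 4 fragments in IL-4 members and 5 in untreated members, and no listed peak had fewer than 3 with IL-4 or fewer than 4 without. Local background went down to 0.643 fragments in the IL-4 library and to 0.936 in the untreated one, so the same number of fragments stood higher over background in the IL-4 library. A −log10 q of at least 5 was reached by 13 IL-4 members, or 0.26% (0.152 to 0.445%), beside 0.333% of all IL-4 peaks. In the untreated list 4 members reached it, or 0.131% (0.0509 to 0.336%), beside 0.0944% of all untreated peaks. Neither share of members stood above its list's background by more than its counting error. At protein-coding gene ends 3.6% of IL-4 peaks reached it, and 0.212% of untreated ones. A q of at most 0.05 was reached by 659 IL-4 members (13.2%, beside 12.5% of all IL-4 peaks) and by 412 untreated members (13.5%, beside 14.7% of all untreated peaks).

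A pair of lncRNA loci were strong in both libraries. Gm40034 had 23 fragments (14.6 to 34.5) in IL-4 cells and 41 fragments (29.4 to 55.6) in untreated cells at its 3′ end, on chromosome 2 from 181917472 to 181917958 with IL-4. It was the highest member by −log10 q in both lists. AY036118, on chromosome 17 from 39848199 to 39848748, had 108 fragments (88.6 to 130) in IL-4 cells and 104 (85.0 to 126) in untreated cells. Its local background was 42.7 fragments in the IL-4 library and 50.3 in the untreated one, so fragments were high across that neighbourhood and not at the summit alone. A second pair of overlapping peaks at the same gene end had 68 fragments (52.8 to 86.2) in IL-4 cells and 95 (76.9 to 116) in untreated cells.

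The other 11 strong IL-4 members did not reach a −log10 q of 5 in untreated cells. Of these, 9 lay at a gene start and 2 at an end of unknown strand, 9 had no overlapping untreated peak, and 6 lay inside a protein-coding gene. Having none is the usual state, since 5.48% of all IL-4 peaks overlapped an untreated peak. The closest of the 11 to a protein-coding gene end lay 2264 bp from it, just beyond the limit of the rule. Gm26901, on chromosome 1 from 7397410 to 7398360, had 19 fragments (11.4 to 29.7) in IL-4 cells and 6 (2.2 to 13.1) in untreated cells. Its summit was 301 bp from the start and 224167 bp from the nearest protein-coding gene end, that of Pcmtd1. Gm17801 had 20 fragments (12.2 to 30.9) in IL-4 cells and 7 (2.81 to 14.4) in untreated cells. For both genes the intervals of the libraries overlapped.

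Mir22hg had 18 fragments (10.7 to 28.4) in IL-4 cells and no peak in the untreated list. The peak ran from 75460951 to 75461657 on chromosome 11, its summit was 88 bp from the start of the gene, and its −log10 q was 8.12. D130051D11Rik had 14 fragments (7.65 to 23.5) in IL-4 cells with its summit 81 bp from the start, and no untreated peak. It lies 52694 bp from the nearest end of Wnt7b, a Wnt ligand gene. Gm27011 had 13 fragments in IL-4 cells inside Banp, a gene whose protein binds CG-containing DNA, and Gm13483 had 11 inside Mmadhc, a gene of cobalamin metabolism. Both summits lay 2383 bp from a protein-coding gene end, and neither had an untreated peak. The remaining strong IL-4 members had 14 fragments at Gm16217, inside the lipoprotein receptor gene Lrp1, and 10 each at Gm15283, A630072M18Rik, Gm33929 and Gm51757. Gm15283 lies 5512 bp from an end of Hif1a, the oxygen-regulated transcription factor, and Gm51757 lies inside Syne1, which encodes a protein of the nuclear envelope. None of these 5 overlapped an untreated peak. An absent peak is not an absence of signal: a site in the untreated library needed at least 4 fragments to be listed.

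**Figure D1:**
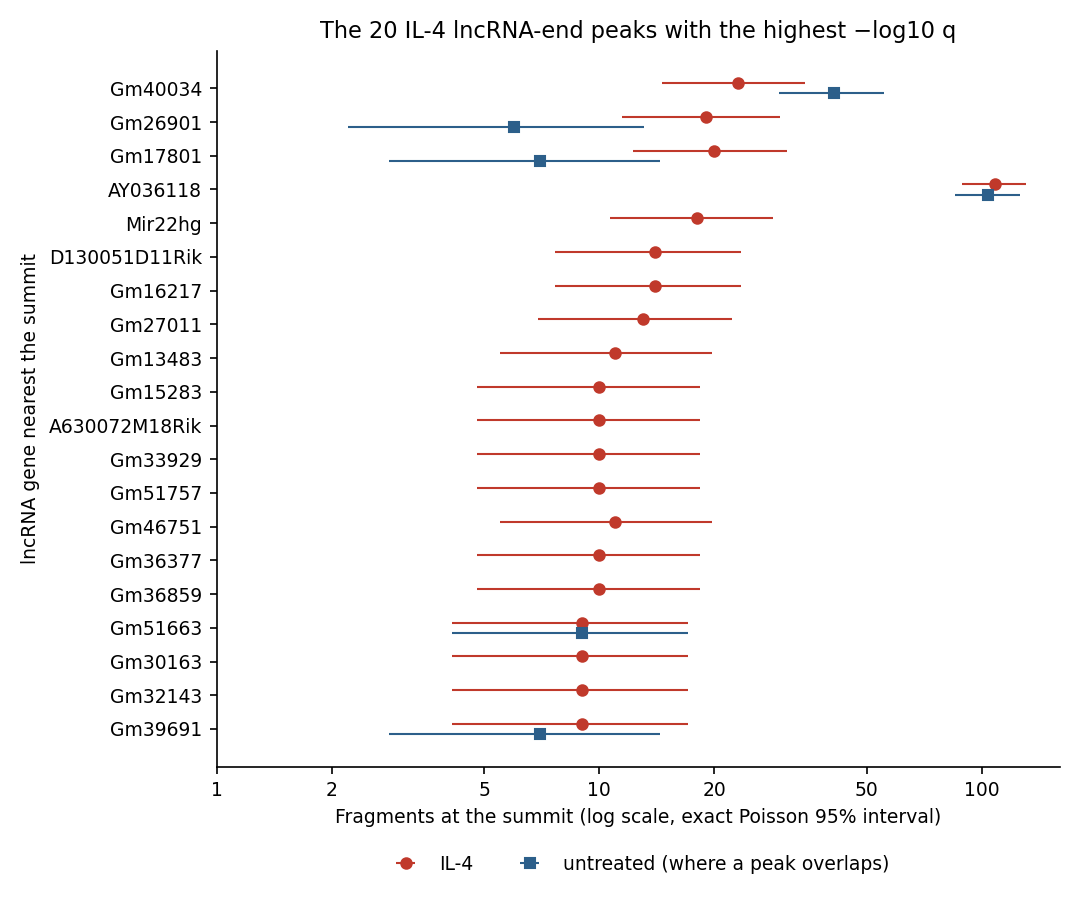
Fragments at the summit (horizontal axis, logarithmic) of the 20 IL-4 members highest by −log10 q (rows), with exact Poisson 95% intervals, in the IL-4 list and, where an untreated peak overlapped, in the untreated list. Of the 20 members, 6 overlapped an untreated peak, and of these Gm40034 alone had more fragments in the untreated list (23 in IL-4 cells, 41 in untreated cells). Overlap was seen for 5.48% of all IL-4 peaks, most of them weaker. At a −log10 q of at least 3 it was 21.4% of members and 11.9% of IL-4 peaks away from both kinds of gene end.

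Among the 20 IL-4 members highest by −log10 q, 12 lay at a gene start, 4 at a 3′ end and 4 at an end of unknown strand. The 7 below a −log10 q of 5 had 9 to 11 fragments in IL-4 cells: Gm46751, Gm36377, Gm36859 (whose peak also lay at Gm46780), Gm51663, Gm30163, Gm32143 and Gm39691. Gm51663 had 9 fragments in IL-4 cells and 9 in untreated cells, and Gm39691 had 9 in IL-4 cells and 7 in untreated cells. The other 5 had no untreated peak. In the untreated list the 5 highest members were Gm40034, Gm19426, Gm34058, AY036118 and Gm36599. Gm19426 had 4 fragments in IL-4 cells and 13 in untreated cells. Gm34058 had no IL-4 peak and 13 fragments in untreated cells. Gm36599 had 5 fragments in IL-4 cells and 11 in untreated cells, with the untreated summit 93 bp from its start. Outside Gm40034 and AY036118, members past a −log10 q of 5 had 10 to 20 fragments in IL-4 cells and 13 in untreated cells.

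LncRNA ends held more peaks than positions shifted along the chromosomes, by a similar factor in both lists. Each list was shifted in 20 steps of 5 Mb. Of all IL-4 peaks on chromosomes 1 to 19, 2.10% (2.05 to 2.16%) were members, against 1.69% at shifted positions, a ratio of 1.25. Of all untreated peaks 2.06% (1.99 to 2.13%) were members, against 1.68%, a ratio of 1.22. The member rule removes peaks near protein-coding ends, so the share was also taken over peaks more than 2 kb from every such end. It was then 2.29% (2.23 to 2.36%) in the IL-4 list, with 1.73 to 1.86% over the 20 shifts, and 2.2% (2.12 to 2.28%) among untreated peaks, with 1.70 to 1.86%. Both lists lay above all of their shifts, and the intervals of the lists overlapped.

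In the IL-4 list the share was higher among the strongest peaks. Of IL-4 peaks away from protein-coding ends, members made up 2.23% at a −log10 q under 1, 2.42% at 1 to 2, 2.37% at 2 to 3, 2.83% at 3 to 5 and 4.33% at 5 or more. The last value rests on 13 of 300 peaks (2.55 to 7.27%), and its shifts gave 0.943 to 2.45%. The corresponding untreated shares were 2.23%, 2.13%, 2.09%, 2.54% and 3.12%, the last on 4 of 128 peaks (1.22 to 7.76%, with shifts of 0 to 3.70%). Over all IL-4 peaks at a −log10 q of 5 or more, without regard to protein-coding ends, members were 13 of 791, or 1.64% (0.963 to 2.79%), and the shifts gave 1.66%. The higher share of strong peaks therefore depends on leaving out peaks near protein-coding ends.

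**Figure D2:**
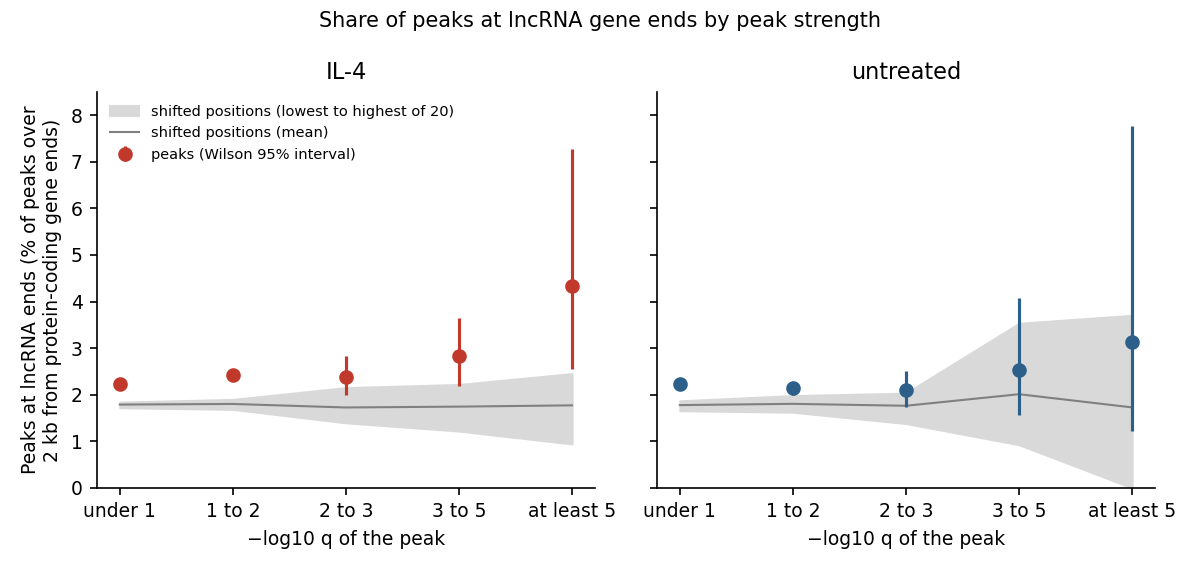
Members as a percentage of peaks more than 2 kb from every protein-coding gene end (vertical axis), by −log10 q of the peak (horizontal axis), for the IL-4 and untreated lists, with Wilson 95% intervals and the values at shifted positions. The IL-4 share was 2.23% in the weakest class and 4.33% in the strongest, where the interval is wide.

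Starts and 3′ ends were told apart for the 9291 lncRNA genes of 12408 whose strand is given by RefSeq's promoter table, and 3117 genes had no entry. IL-4 peaks at lncRNA starts numbered 2005, or 1.41 times the shifted share of peaks away from protein-coding ends, and those at 3′ ends numbered 1934, or 1.24 times. Untreated peaks at starts numbered 1200, or 1.34 times, and those at 3′ ends 1133, or 1.13 times. The ends separated further among stronger IL-4 peaks. A −log10 q of 3 was reached by 1.5% of all IL-4 peaks and 0.557% of all untreated peaks. Past it, 37 IL-4 peaks lay at starts, 2.61 times the shifted share, and 22 at 3′ ends, 1.31 times. Their shifted counts were 11 to 32 at starts and 13 to 41 at 3′ ends. Taken over all IL-4 peaks of that strength, whatever their distance to protein-coding ends, the ratios were 1.80 at starts and 0.902 at 3′ ends. In the untreated list 7 lay at starts, 1.30 times, and 9 at 3′ ends, 1.55 times, with shifted counts of 1 to 12 at starts and 0 to 13 at 3′ ends.

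CpG-rich lncRNA starts held IL-4 peaks more often than other lncRNA starts did, and did not hold untreated peaks more often. The comparison covers the 7677 lncRNA genes with a listed start more than 2 kb from protein-coding ends, 1 start per gene, whether or not they held a peak. Only 361 of these starts (4.70%) were CpG-rich, against 47.3% of protein-coding promoters. IL-4 summits lay within 1 kb of 146 CpG-rich starts, or 40.4% (35.5 to 45.6%), beside 23.4% of all lncRNA starts. Untreated summits lay within 1 kb of 46 CpG-rich starts, or 12.7% (9.69 to 16.6%), beside 14.9% of all lncRNA starts. At starts rich in G and C but poor in CG dinucleotides the share was 26.3% with IL-4 and 18.98% without. At starts poor in G and C it was 20.7% with IL-4 and 13.1% without. Positions 10 and 20 kb to either side of the CpG-rich starts gave 21.4% with IL-4 and 10.4% without, so the IL-4 share at these starts was 1.89 times its flanks and the untreated share 1.23 times. Starts rich in G and C but poor in CG dinucleotides stood at 1.18 times their flanks with IL-4 and 1.23 times without. Starts poor in G and C stood at 1.05 times with IL-4 and 1.03 times without.

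The same held for stronger peaks. At a q of at most 0.05, 42 CpG-rich lncRNA starts had an IL-4 peak, or 11.6% (8.72 to 15.4%), beside 3.4% of all lncRNA starts and 3.02% of the flanking positions. Untreated peaks lay at 7, or 1.94% (0.942 to 3.95%), beside 2.11% of all lncRNA starts and 1.47% of the flanks. With −log10 q at 3 or more, 12 CpG-rich starts had an IL-4 peak (3.32%, 1.91 to 5.72%), beside 0.469% of all lncRNA starts. An untreated peak of that strength lay at 0 of 361, with a Wilson upper limit of 1.05% (3 counts of 361 would be 0.831%). That limit lies above the 0.117% of all lncRNA starts with such an untreated peak, so the 0 does not set CpG-rich starts apart. When IL-4 peaks of 3 fragments were left out, so that both lists began at 4, 32.4% of CpG-rich starts had an IL-4 peak and 12.7% an untreated peak. Of protein-coding CpG-rich starts, 60.9% held an IL-4 peak, beside 43.4% of all protein-coding starts, and 17.5% an untreated peak, beside 15.1%. The IL-4 share was 3.23 times its flanks and the untreated share 1.67 times. Unlike at lncRNA starts, untreated peaks were thus also more frequent at CpG-rich protein-coding starts, by a smaller factor. Whether the sequenced fragments of the libraries differed in base composition was not tested.

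**Figure D3:**
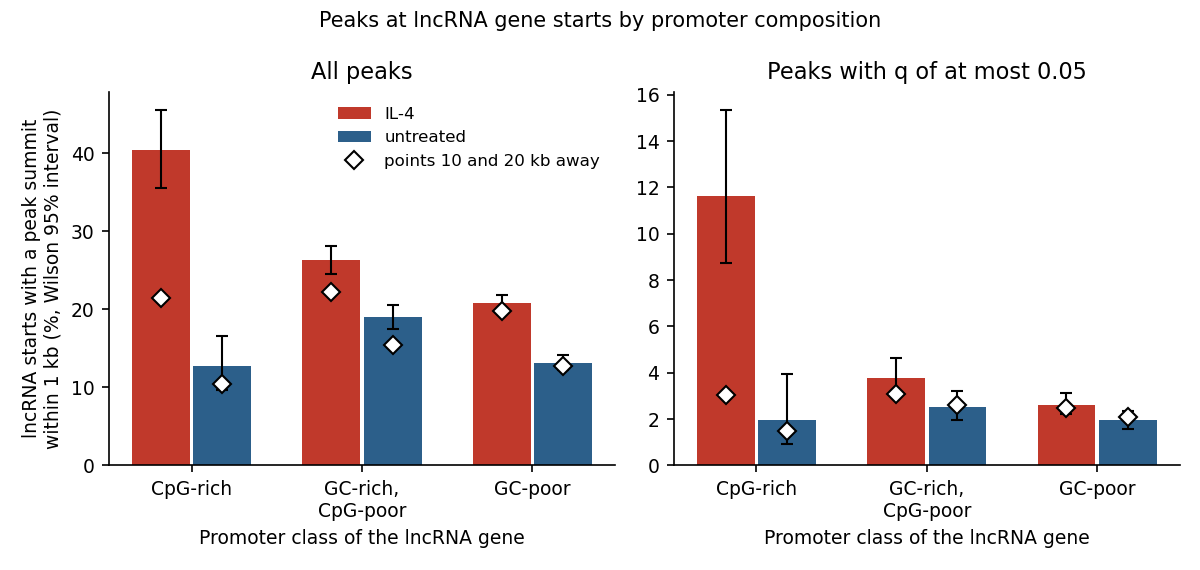
Share of lncRNA starts with a peak summit within 1 kb (vertical axis, percent), by base composition of the promoter, in the IL-4 and untreated lists, for all peaks and for those with a q of at most 0.05, with Wilson 95% intervals and the share at flanking positions 10 and 20 kb away. Over all peaks CpG-rich starts stood at 40.4% with IL-4 and 12.7% without.

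The split at CpG-rich starts appeared in curated and in predicted lncRNA genes, and near to and far from protein-coding gene ends. A start far from such ends can still lie inside a protein-coding gene. The IL-4 summit at Gm46751, for example, lay inside Itprid2, 37665 bp from its nearest end. Among genes with a curated RefSeq transcript, IL-4 peaks lay at 47.3% of CpG-rich and 23.9% of other starts, and untreated peaks at 12.1% of CpG-rich and 15.6% of other starts. Among predicted genes the IL-4 shares were 33.5% and 22.1%, and the untreated shares 13.4% and 14.8%. For starts over 10 kb from every protein-coding end, IL-4 peaks lay at 39.4% of CpG-rich and 22.5% of other starts. Untreated peaks lay at 13.3% of CpG-rich and 14.8% of other starts at that distance.

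Around CpG-rich starts the IL-4 summits were concentrated in the nearest 500 bp to each side. There were 17.3 summits per 100 starts in the 500 bp before the start and 17.1 in the 500 bp after it. In the outermost 500-bp bins of the 5 kb to each side there were 4.17 and 2.94. Untreated summits gave 4.18 before and 3.36 after the start. Around starts that were not CpG-rich, the bins next to the start held 6.27 and 6.89 IL-4 summits and 4.01 and 4.45 untreated summits per 100 starts, and the outermost bins 5.40 and 5.75 IL-4 summits.

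**Figure D4:**
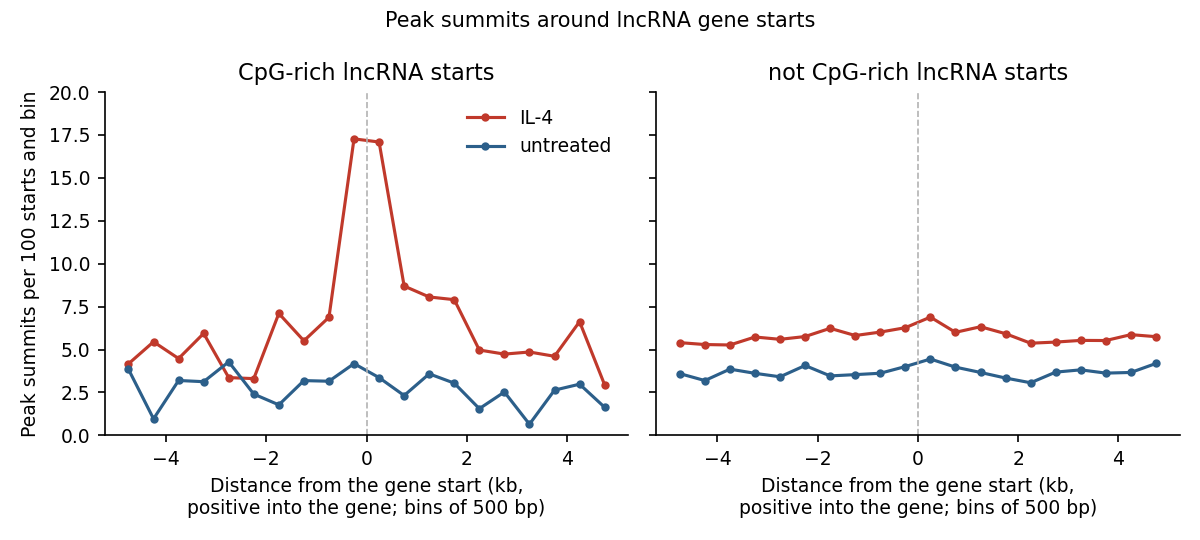
Peak summits per 100 lncRNA starts (vertical axis) in 500-bp bins by distance from the start (horizontal axis, kb), for CpG-rich and other starts in a panel each, in the IL-4 and untreated lists. The IL-4 line at CpG-rich starts reaches 17.3 next to the start, where the untreated line stands at 4.18.

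IL-4 members at CpG-rich starts were also stronger and wider than the rest. There were 171 of them in the IL-4 list, with a median width of 206 bp and a median of 5 fragments, and 25.1% (19.2 to 32.1%) reached a q of at most 0.05. IL-4 members at other listed starts had a median width of 168 bp, and 12.3% (10.8 to 13.9%) reached that q. In the untreated list 45 members lay at CpG-rich starts, and 15.6% (7.75 to 28.8%) reached it, beside 13.5% (11.6 to 15.6%) at other listed starts. Both of these untreated groups had a median of 5 fragments. Beside the genes named above, 1700028E10Rik, Gm38560 and Gm32934 each had 10 fragments in IL-4 cells at a CpG-rich start and no untreated peak. The summit at Gm38560 was 0 bp from the annotated start. B330016D10Rik had the widest IL-4 member, 1209 bp with 10 fragments, 7614 bp from an end of Spen, a gene for an RNA-binding repressor. Lockd, a lncRNA gene downstream of the cell cycle inhibitor gene Cdkn1b, had 8 fragments in IL-4 cells and 5 in untreated cells. 4930412O13Rik, 6069 bp from an end of Gata3, had 7 in IL-4 cells and no untreated peak. These genes were chosen after their values were seen.

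Short motifs were counted in the same 300 bases, on both strands. GGGCGG, the core of the box bound by SP factors, was in 57.6% of the 361 CpG-rich lncRNA starts and in 68.5% of the 146 with an IL-4 peak. It was in 10.04% of all 7677 lncRNA starts, in 13.3% of those with an IL-4 peak, in 11.3% of those with an untreated peak and in 35.98% of all promoters of the table. Among starts with a peak at a q of at most 0.05, it was in 22.6% (17.9 to 28.1%) of the IL-4 starts and 8.64% (5.22 to 14.0%) of the untreated starts. GGGCGG itself contains a CG. Among starts that were not CpG-rich, it was in 8.37% of those with an IL-4 peak and 7.70% of all. CCGGAA, an ETS motif, was in 20.5% of CpG-rich starts with an IL-4 peak, beside 21.1% of all CpG-rich starts. GCGCATG, an NRF1 motif, was in 7.53%, beside 8.59%. The STAT6 motif (TTC, any 4 bases, GAA), bound by the factor that IL-4 activates, was in 9.6% of the starts with an IL-4 peak and in 9.6% of those with an untreated peak, beside 8.5% of all lncRNA starts. GAGGAAG, which contains the core of the PU.1 motif, was in 14.9% of starts with an IL-4 peak and 13.6% of those with an untreated peak, beside 13.2% of all. At a q of at most 0.05 the STAT6 motif was in 10.3% (7.21 to 14.6%) of the IL-4 starts and 13.6% (9.14 to 19.7%) of the untreated starts, and GAGGAAG in 11.9% (8.49 to 16.4%) of the IL-4 starts and 16.0% (11.2 to 22.5%) of the untreated starts. A match is a description of the letters and not of a bound site.

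Few members coincided between the libraries. Of IL-4 members 261, or 5.22% (4.64 to 5.87%), overlapped an untreated peak by at least 1 bp, beside 5.48% of all IL-4 peaks and 2.55% of the shifted members. Of untreated members 265, or 8.67% (7.72 to 9.72%), overlapped an IL-4 peak, beside 8.77% of all untreated peaks and 4.13% of the shifted members. The members' overlap was therefore close to that of their lists. Among IL-4 members with −log10 q at 3 or more, 15 of 70 (21.4%, 13.4 to 32.4%) overlapped, beside 30.3% of such peaks at protein-coding ends and 11.9% of those away from both. At the 261 overlapped IL-4 members the medians were 4 fragments in IL-4 cells and 5 in untreated cells. More fragments were found in IL-4 cells at 57, equal numbers at 45, and more in untreated cells at 159. IL-4 peaks were listed from 3 fragments and untreated peaks from 4. An IL-4 member with 3 fragments could therefore only count as having more in untreated cells. Divided by the local background of each peak, the IL-4 value was higher at 173 of the 261. The direction thus depends on the listing limits and on that scaling, and does not compare the libraries.

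**Figure D5:**
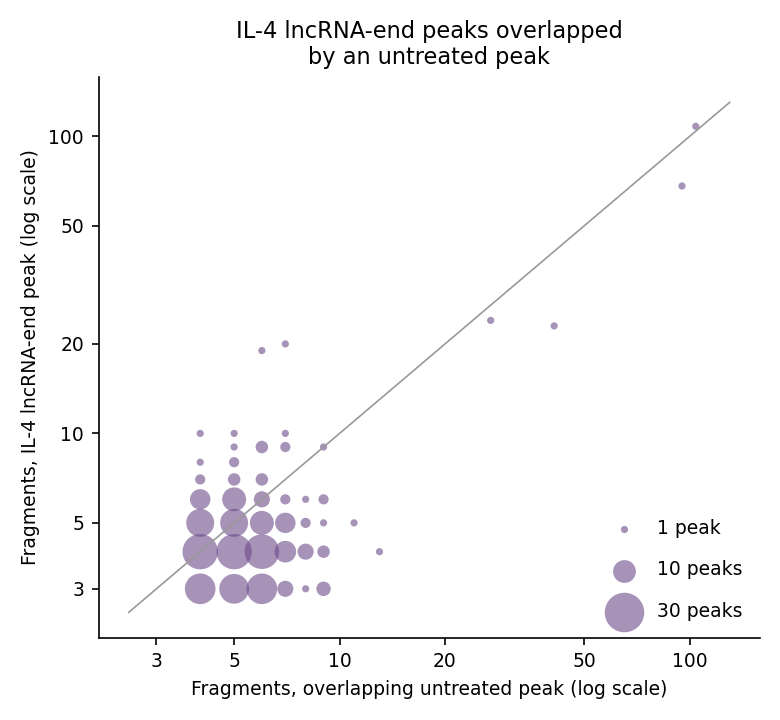
Fragments at the summit in the IL-4 list (vertical axis) and in the overlapping untreated peak (horizontal axis) for the 261 IL-4 members that overlapped, on logarithmic axes, with the area of a point giving the number of peaks and a line for equal fragments. The medians are 4 fragments in IL-4 cells and 5 in untreated cells, and Gm40034 (23 and 41) and AY036118 (108 and 104) lie far above them. IL-4 peaks were listed from 3 fragments and untreated peaks from 4.

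Counted by gene, 1116 of 11851 lncRNA genes had an end peak with and without IL-4, 3060 with IL-4 alone, 1623 in untreated cells alone and 6052 in no list. An IL-4 peak was at an end of 35.2% of the genes and an untreated peak at an end of 23.1%. If the lists were independent, 965 genes would hold both. Most genes had a single member: of the 4176 genes in the IL-4 list 3342 had 1 member, 735 had 2 and 99 had 3 or more, with 5 at Gm20324. IL-4 peaks lay at 35.7% of curated and 35.1% of predicted genes, and untreated peaks at 22.4% of curated and 23.3% of predicted genes. At a q of at most 0.05, 25 genes had one with and without IL-4, 629 with IL-4 alone and 391 in untreated cells alone, and independent lists would give 23.0 in both.

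Of 13 widely expressed or well-studied lncRNA genes, 10 had an IL-4 end peak (76.9%, beside 35.2% of all lncRNA genes) and 4 an untreated one (30.8%, beside 23.1%). At a q of at most 0.05 there were 3 in the IL-4 list, Neat1, Malat1 and Oip5os1 (23.1%, beside 5.52% of all genes), and 2 in the untreated list, Kcnq1ot1 and Meg3 (15.4%, beside 3.51%). Neat1, the scaffold RNA of paraspeckles, had 16 fragments (9.15 to 26.0) in IL-4 cells and no untreated peak. Malat1, an RNA of nuclear speckles, had 11 (5.49 to 19.7) in IL-4 cells with the summit 151 bp from its start, and no untreated peak. Oip5os1, also called Cyrano, had 6 in IL-4 cells at a CpG-rich start, and Dancr had 5. Kcnq1ot1, an imprinted antisense RNA, had 4 fragments in IL-4 cells and 7 in untreated cells. Meg3, also imprinted, had 3 fragments in IL-4 cells at its start and 8 in untreated cells at its 3′ end. Lncpint, Tug1 and Trp53cor1 had 4 to 5 fragments in IL-4 cells and no untreated peak. Pvt1, beside Myc, had 3 fragments in IL-4 cells and 5 in untreated cells at different positions, and Peg13 had 7 in untreated cells and no IL-4 peak. The list's median gene had 4 fragments in IL-4 cells and 0 in untreated cells, and over all lncRNA genes the median was 0 in both.

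Of 26 hosts of small RNAs, 8 had an IL-4 end peak (30.8%, beside 35.2% of all lncRNA genes) and 7 an untreated one (26.9%, beside 23.1%). The IL-4 ones were Mir22hg with 18 fragments, Snhg5 and Dleu2 with 6, Snhg7, Snhg11 and Snhg4 with 5, and Snhg12 and Snhg18 with 4. Snhg genes are hosts of snoRNAs, and Dleu2 hosts miR-16-1. The untreated ones were Snhg3 with 7 fragments, Snhg8 and Snhg18 with 6, Snhg17 with 5, and Dleu2, Mir99ahg and Epb41l4aos with 4. Only Mir22hg and Snhg5 in the IL-4 list and Snhg3 in the untreated list passed a q of 0.05. The untreated peak at Snhg8 overlapped an IL-4 peak of 11 fragments that was not a member, because its summit lay less than 2 kb from an end of the protein-coding gene Prss12. Among the 60 lncRNA genes that span a microRNA hairpin, 21 had an IL-4 end peak (35.0%) and 16 an untreated one (26.7%). At a q of at most 0.05 there were 2 with IL-4 (3.33%, beside 5.52% of all) and 5 untreated (8.33%, beside 3.51%).

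Of 9 macrophage and immune lncRNA genes, 5 had an IL-4 end peak (55.6%, beside 35.2% of all lncRNA genes) and 2 an untreated one (22.2%, beside 23.1%), and none passed a q of 0.05 in either list. Mirt1 had 5 fragments in IL-4 cells, Ptgs2os2, Morrbid and Dnmt3aos had 4 and AW112010 had 3. Morrbid is known for controlling the life span of myeloid cells, and Ptgs2os2, also called lincRNA-Cox2, for acting in the inflammatory response. Ptgs2os had 4 and Gm16685 had 5 fragments in untreated cells. Of 20 neural and developmental lncRNA genes, 9 had an IL-4 end peak (45%, beside 35.2%) and 4 an untreated one (20%, beside 23.1%), and Meg3 in untreated cells alone passed a q of 0.05. Mirg and Hotairm1 had 5 fragments in IL-4 cells, Rmst had 4, and Pantr1, Platr14, Platr4, Sox1ot, Six3os1 and Meg3 had 3. Platr4 had 6, Mirg 5 and Fendrr 4 fragments in untreated cells. Meg3 is a member of this list and of the well-studied one. All 4 lists hold few genes and were chosen with earlier results of these data known.

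Protein-coding ends of macrophage marker genes were examined. IL-4 peaks at a q of at most 0.05 lay at Cd68, Fcgr3 and Tyrobp, which had no untreated end peak. Spi1 and Cebpa had weaker IL-4 end peaks, and Cebpa also had a weak untreated one. Csf1r, Adgre1, Itgam and Lyz2 had no end peak in either list. Of 5 marker genes each of T and NK cells, B cells, neurons and erythroid cells, IL-4 peaks lay at 2 in each, with Syt1 alone at a q of at most 0.05, and untreated peaks at 2, 3, 3 and 0. Of all 20665 protein-coding genes, 51.5% had an IL-4 end peak (19.2% at a q of at most 0.05) and 24% an untreated one (4.25% at that q), so an end peak at a marker gene does not identify the cell type.

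The member regions resembled each other in position across the lists. The summit lay inside a lncRNA gene in 55.1% of IL-4 members and 54.7% of untreated members, and inside a protein-coding gene in 29.1% of IL-4 members and 29.3% of untreated members. The median distance to a protein-coding end was 32152.5 bp in IL-4 members and 36721 bp in untreated members. Strong IL-4 members were more common close to protein-coding genes: a −log10 q of at least 3 was reached by 3.14% (1.94 to 5.04%) of those 2 to 5 kb from a protein-coding end, 1.56% at 5 to 20 kb, 1.30% at 20 to 100 kb and 0.607% (0.294 to 1.25%) beyond 100 kb. Untreated members stood at 0.692%, 0.753%, 0.645% and 0.547% over the same distances. The share of all peaks that reached this strength was not computed by distance in either list. Whether the fall with distance is particular to lncRNA-end members or holds for any IL-4 peak was therefore not tested. At the edge of the rule, 473 IL-4 peaks lay in the last 100 bp inside the 1 kb limit from a lncRNA end and 482 in the first 100 bp beyond it, with a median of 4 fragments in both. For untreated peaks these numbers were 295 and 284, with a median of 5. In the first 100 bp beyond 2 kb from a protein-coding end lay 20 IL-4 and 15 untreated members, and in the last 100 bp inside it 18 IL-4 and 14 untreated peaks that the rule left out.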

How the data were processed

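CUT&Tag peak lists of 2 libraries, 1 per group, were analysed. The tools listed in the submitters' processing notes are MACS2 2.2.7.1, Bowtie 0.12.8 and DiffBind, and the build is mm10, with no roles given. The control, fragment size and duplicate removal were not given in the sources used here. In the deposited narrowPeak lists, per the file layout, the authors gave each peak a score, a fold enrichment (a linear ratio over local background), a −log10 p-value, a −log10 q-value and a summit offset. Peaks were listed per library.

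Entries of 1 interval were reduced to the summit of highest −log10 q. Fragments and background were solved from fold, taken as (fragments + 1)/(background + 1), and −log10 p, taken as a Poisson tail, within 0.01. This, the nearest distances and the overlaps were tested on simulated data, and the full member rule was not. The totals of reads were not used here, and the lowest local background stands for depth. Gene ends and promoters came from RefSeq GRCm38.p6, with 12408 lncRNA and 20665 protein-coding genes. Promoter entries were missing for 3117 lncRNA genes. The start listed nearest the annotated gene end was used. Genes were counted if an end lay over 2 kb from protein-coding ends or held a member. Shifts were circular and can fall in assembly gaps, so shifted shares can be slightly low.

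Named genes were those of the 20 IL-4 members and 5 untreated members highest by −log10 q, and listed genes with a member. The text also names 6 genes with a CpG-rich start, chosen after their values were seen, and cell type markers, of which 1 macrophage marker is not reported here. The members and lists were chosen with earlier results of these data known, and the promoter classes and flanks were chosen after seeing the data. Alternatives changed the window, protein-coding distance, q, minimum fragments, overlap and list length. Python 3.11.15, numpy 2.4.6, pandas 2.3.3, scipy 1.17.1 and matplotlib 3.10.9 were used.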

Additional observations from a re-analysis of the deposited data

How the results depend on the processing

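No paired analysis was possible because each group had 1 library. Of the results that answer a comparison, 52 recomputed values stayed close to the reported one (within 1.5 times for counts, inside its 95% interval for shares, within 1 SD for median fragments) and 34 moved, most by construction since the alternative widens or narrows the rule. With a 500 bp window there were 2553 IL-4 and 1509 untreated members (1.07% and 1.02% of peaks) at 2343 and 1452 genes, and the untreated overlap was 9.74%. With a 2 kb window there were 9410 IL-4 and 5730 untreated members (3.96% and 3.86%) at 6623 and 4551 genes. With 5 kb from protein-coding ends the shares were 1.89% of IL-4 and 1.87% of untreated peaks. At a q of at most 0.05 in both lists there were 659 IL-4 and 412 untreated members (2.21% and 1.89%) at 654 and 416 genes, of which 1.52% and 2.43% overlapped and 1.97% and 0.971% reached a −log10 q of 5. With strength set at a −log10 q of 3, 1.40% of IL-4 and 0.654% of untreated members passed. When 50% of a peak had to be covered, 2.60% of IL-4 and 4.74% of untreated members overlapped. With at least 4 fragments, 6.61% of untreated members overlapped. With lists cut to equal length by strength the IL-4 list held 3084 members. Over peaks away from protein-coding ends, a denominator chosen after seeing the data, members were 2.29% of IL-4 peaks, 2.2% of untreated peaks and 4.33% of strong IL-4 peaks. The share of CpG-rich starts with an IL-4 peak, also chosen after seeing the data, was 40.3% when every listed start was used. Depth limits all values: with medians of 4 and 5 fragments, most single members cannot be compared between the libraries.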
